A study of Mus musculus with 18 samples.

Results

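Neurofilaments and alpha-internexin were followed in the mouse cochlear nucleus, the brainstem region that receives the auditory nerve, from postnatal day 7 (P7) through day 14 (P14) to day 21 (P21). Their members are probe sets of an oligonucleotide array, chosen by identifier. A list of 5 identifiers was given, and 4 of them were rows among the 22690 probe sets of the table: 1426255_at for Nefl, 1422520_at for Nefm, 1424847_at for Nefh and 1418178_at for Ina. The remaining identifier, 1454672_at, the second given for Nefl, was not analysed here, so each gene is read by 1 probe set. The gene names come from the definition of the group. The table itself pairs no probe set with a gene, and 0 of its identifiers matched the gene table at hand.

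The animals were C57BL/6J mice, and age was the only difference between groups that the labels name. Each array received RNA extracted from the cochlear nuclei of 5 pups pooled together, giving 3 pools of P7 pups, 2 of P14 pups and 3 of P21 pups. The labels do not say whether the pools came from separate litters, so p-values measure the spread between these pools. The number of arrays limits the precision, since arrays have no read depth. Because no probe set other than the members has a name here, the labelled tissue was not checked against marker genes, and lists of other cytoskeletal genes and of cell type markers were not read.

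Neurofilaments are the intermediate filaments of neurons and are most abundant in large myelinated axons, whose calibre they help to set. Nefl encodes the light chain, which forms the core of the filament together with the medium chain (Nefm) and the heavy chain (Nefh). The medium and heavy chains carry long tails that project from the filament and become phosphorylated in the axon. Ina encodes alpha-internexin, a further neuronal subunit that joins the same filaments and is known from developing neurons. The heavy chain is known as the subunit that appears last as axons mature.

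Of the 4 subunits, Nefh changed most. Its signal was 3.21 times higher at P14 than at P7 and 2.69 times higher at P21 than at P7, as ratios of mean signals. Nefm was 1.30 times its P7 mean at P14 and 1.11 times at P21, and the P14 difference passed the test in the fit of all 8 arrays but not under several other settings. Nefl, at 1.13 and 1.17 times its P7 mean, and Ina, at 0.964 and 1.02 times, did not pass in any comparison of that fit. These are signals of whole tissue, in which fewer cells of a type and less RNA per cell cannot be told apart.

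Signals are the deposited intensity values, which had been scaled so that the trimmed mean of every array was 250.1. The 4 probe sets were among the brightest of the 22626 that are not array controls. On each array, at most 0.256% of probe sets were brighter than that of Nefl, at most 1.14% brighter than that of Nefm and at most 2.55% brighter than that of Ina. For Nefh the share that was brighter lay between 5.26% and 6.83% on the P7 arrays and between 1.03% and 1.51% on the later arrays. A signal also depends on how well a probe set binds, so these ranks do not order the 4 genes by abundance.

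The heavy chain, Nefh, read 1008.9, 1139.4 and 1226.4 on the 3 P7 arrays. At P14 the readings were 3682.5 and 3542.9, and at P21 they were 2826.3, 3196.8 and 3043.2. All 5 later arrays lay above all P7 arrays, and the lowest of them was 2.31 times the highest P7 value. The P14 arrays also lay above all 3 P21 arrays, so the 3 ages did not overlap, though the test below did not call the change from P14 to P21. How many of all probe sets separate in this way was not counted. Means were 1125 ± 109.5 (SD, n = 3) at P7, 3613 ± 98.7 (SD, n = 2) at P14 and 3022 ± 186 (SD, n = 3) at P21.

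The core subunit, Nefl, read 5024.3, 5624.5 and 5407.1 at P7. It read 6255.5 and 5881.6 at P14, and 5543.9, 6360.3 and 6835 at P21. Both P14 arrays and 2 of the 3 P21 arrays lay above every P7 array, while P21 replicate 1 lay within the P7 range. Means were 5352 ± 304 (SD, n = 3), 6069 ± 264 (SD, n = 2) and 6246 ± 653 (SD, n = 3) in order of age.

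The medium chain, Nefm, read 3497.7, 3484.7 and 3241.3 at P7. It read 4521.2 and 4352.3 at P14, and 3246.5, 4186.3 and 3900.6 at P21. Both P14 arrays were above every array of the other ages, and P21 replicate 1 again fell within the P7 range. Means were 3408 ± 144 (SD, n = 3), 4437 ± 119 (SD, n = 2) and 3778 ± 482 (SD, n = 3).

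Alpha-internexin, Ina, read 2593.7, 2225.4 and 2257.9 at P7. Its readings were 2255.3 and 2291.9 at P14, and 2433.6, 2280.9 and 2528 at P21. All later arrays lay below the highest P7 array, and the 3 P21 arrays were all within the P7 range. From the lowest to the highest of the 8 arrays the signal differed by a factor of 1.17, against 1.36 for Nefl, 1.40 for Nefm and 3.65 for Nefh.

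**Figure D1:**
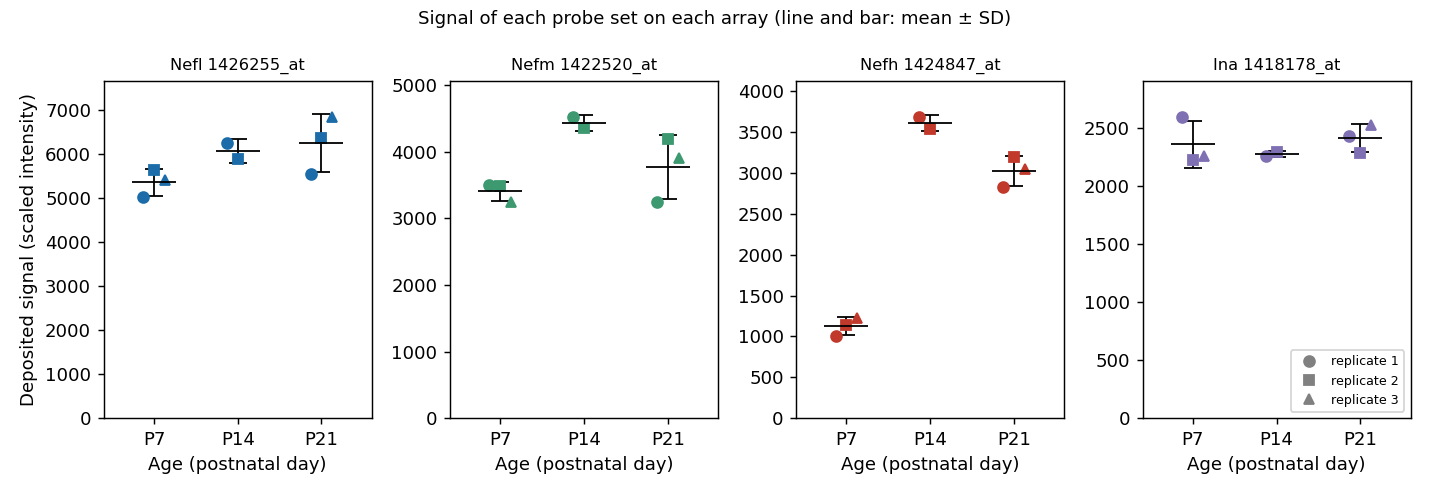
Deposited signal (scaled intensity, vertical axis from 0, its range set for each gene) of the 4 probe sets by age, with a point for each array shaped by replicate number and a line and bar for the mean ± SD. The P7 arrays of Nefh lie between 1008.9 and 1226.4 and all later ones between 2826.3 and 3682.5, while Ina stays between 2225.4 and 2593.7 at every age.

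Changes were tested on log2(signal + 12.5) in 1 limma fit of all 8 arrays, with p-values adjusted by the Benjamini-Hochberg method over the 15296 probe sets that were bright enough to test. All 4 members were among those tested. Fold changes are on this scale, where the pseudocount of 12.5 is small beside the members' signals. The comparisons of P14 and of P21 with P7 share the P7 arrays.

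Between P7 and P14, Nefh rose by 1.68 on the log2 scale (SE 0.11, 95% confidence interval 1.44 to 1.91, limma adjusted p = 1.34e-05). Of all probe sets tested, 0.745% had a larger rise. Nefm rose by 0.38 (SE 0.11, interval 0.13 to 0.63, limma adjusted p = 0.0299). The log2 change of Nefl was 0.18 (interval -0.058 to 0.42, limma adjusted p = 0.234) and that of Ina was -0.050 (interval -0.27 to 0.17, limma adjusted p = 0.751). Thus 2 of 4 members were called, both higher at P14, where 29.6% of all probe sets were called, 1967 higher and 2557 lower.

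The call of Nefm at P14 depended on the setting. It was lost in 8 of 17 alternatives, with log2 changes between 0.21 and 0.41 and limma adjusted p between 0.00668 and 0.16 over all 17. After quantile normalization, which gives every array the same distribution of signals, the change was 0.21 (SE 0.09, limma adjusted p = 0.108). It was also lost without P7 replicate 2 (0.40, adjusted p = 0.0621), without P7 replicate 3 (0.34, adjusted p = 0.0913), without P14 replicate 1 (0.35, adjusted p = 0.16) and without P14 replicate 2 (0.41, adjusted p = 0.109).

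Between P14 and P21, 0 of 4 members were called in limma, where 2.05% of all probe sets were called. At an unadjusted limma p under 0.05, which 2969 of all 15296 probe sets tested had, there was 1 member, Nefh. Its log2 change was -0.26 (SE 0.11, interval -0.49 to -0.022, unadjusted p = 0.0348, limma adjusted p = 0.22), with all 3 P21 arrays below both P14 arrays. The 3 P21 arrays of Nefm also lay below both P14 arrays, and its log2 change was -0.24 (SE 0.11, interval -0.49 to 0.014, limma adjusted p = 0.283). How many of all probe sets have P14 and P21 arrays apart like this was not counted. Nefl had 2 P21 arrays above and 1 below the P14 arrays, with a log2 change of 0.037 (interval -0.20 to 0.28). Ina had a log2 change of 0.085 (interval -0.14 to 0.31).

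Over the whole period from P7 to P21, Nefh rose by 1.42 on the log2 scale (SE 0.09, interval 1.21 to 1.63, limma adjusted p = 4.64e-06), and 1.73% of probe sets had a larger rise. The log2 change of Nefl was 0.22 (SE 0.10, interval 0.0045 to 0.43, unadjusted p = 0.0462, limma adjusted p = 0.0993). The change of Nefm was 0.14 (SE 0.10, interval -0.085 to 0.37, limma adjusted p = 0.303), and that of Ina was 0.035 (SE 0.09, interval -0.16 to 0.23, limma adjusted p = 0.783). So 1 of 4 members was called, where 38.6% of all probe sets were called, 2622 higher and 3285 lower. These intervals hold for this scaling of the arrays and are not bounds. After quantile normalization the interval of Ina from P7 to P21 was -0.24 to 0.17.

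The change before P14 was set against the change after it by a contrast of its own. For Nefh the difference was 1.94 (SE 0.19, interval 1.51 to 2.36, limma adjusted p = 0.00165), and it was called under each of the 17 alternatives, with adjusted p between 0.00161 and 0.0413. In the alternatives that leave out a P14 array (adjusted p 0.0305 and 0.0413), P14 is 1 array and the estimate of spread comes from P7 and P21 alone. The difference was 0.62 for Nefm (SE 0.20, interval 0.17 to 1.07, limma adjusted p = 0.0912), 0.14 for Nefl (limma adjusted p = 0.681) and -0.13 for Ina (limma adjusted p = 0.68). Here 1 of 4 members was called, where 8.01% of all probe sets were called. The median of this difference was -0.10 over all probe sets tested and 0.31 over the 500 at least as bright as Ina, which is above the value of Nefl and below that of Nefm. Over all probe sets after quantile normalization the median was 0.000238, where that of Nefh was 1.75 and that of Nefm was 0.37.

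**Figure D2:**
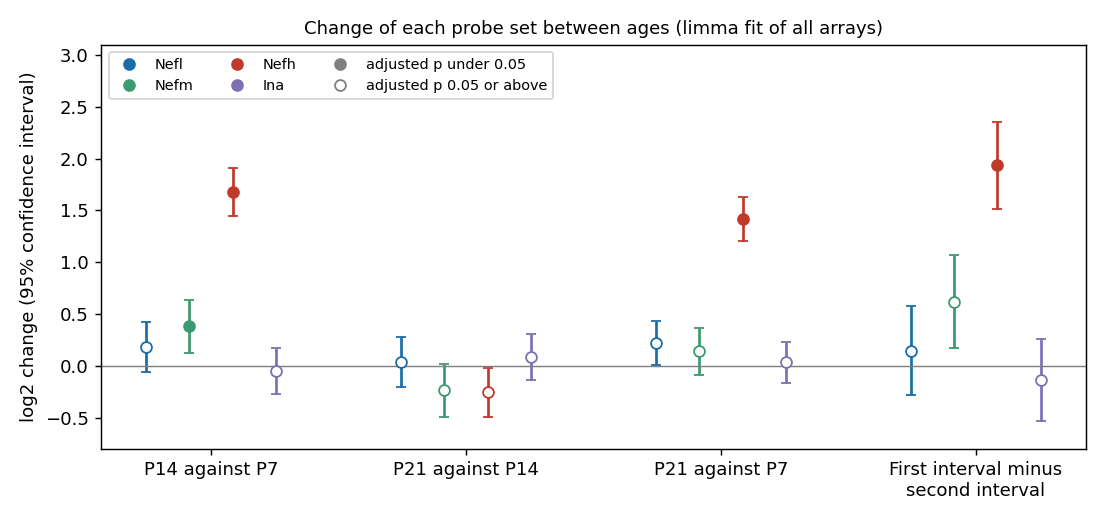
Log2 change of each probe set (vertical axis) in the 4 comparisons (horizontal axis), as points with 95% confidence intervals from the limma fit, filled where the adjusted p was under 0.05. Nefh stands filled at 1.68 for P14 against P7, at 1.42 for P21 against P7 and at 1.94 for the difference between the intervals, and the only filled point of another gene is Nefm at 0.38 for P14 against P7.

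The rise of Nefh kept its direction and its call in every alternative. Its log2 change from P7 to P14 ran from 1.57 to 1.74 with limma adjusted p of at most 0.00129, and from P7 to P21 it ran from 1.27 to 1.48 with adjusted p of at most 0.00703. The bacterial poly-A control of each array was taken to be the brightest of dap, lys, phe and trpn. Control and age overlap, since dap was brightest on no P21 array, and phe and trpn on P21 arrays only. Among arrays with the same control, the mean signal of Nefh at P14 was 3.43 times that at P7 for dap (2 P7 arrays and 1 P14 array). It was 2.89 times for lys (1 array of each age). With lys, the P21 signal was 2.31 times the P7 signal.

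The median signal at the bright end of the array was higher at the later ages. Among the 500 tested probe sets at least as bright as that of Ina by the mean of all arrays, the median log2 change was 0.22 from P7 to P14 and 0.18 from P7 to P21, against -0.074 and -0.018 over all probe sets tested. From P14 to P21 the median of the bright group was -0.085, against 0.034 over all. In this bright group 49% were called between P7 and P14, and 60.2% between P7 and P21. The changes of Nefl, at 0.18 and 0.22, lay close to these medians, and those of Ina, at -0.050 and 0.035, lay below them. Nefm, at 0.38, lay above the median at P14 and, at 0.14, below it at P21. Nefh exceeded both by more than 1. The shares with a larger rise than Nefh given above are over all probe sets tested, and such a share within the bright group was not counted.

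Quantile normalization lowered the medians of the bright group to 0.048 and 0.076. With it, the change of Nefl from P7 to P14 turned from 0.18 to -0.043 (SE 0.08, limma adjusted p = 0.719), and from P7 to P21 it was 0.039 (limma adjusted p = 0.682). Ina then had -0.18 (SE 0.10, limma adjusted p = 0.228) and -0.035 (limma adjusted p = 0.793). Nefh kept 1.57 and 1.39 (limma adjusted p = 1.45e-05 and 3.8e-06). Quantile normalization thus turned the direction of Nefl from P7 to P14 and of Ina from P7 to P21, and kept that of Nefl from P7 to P21 and of Ina from P7 to P14.

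**Figure D3:**
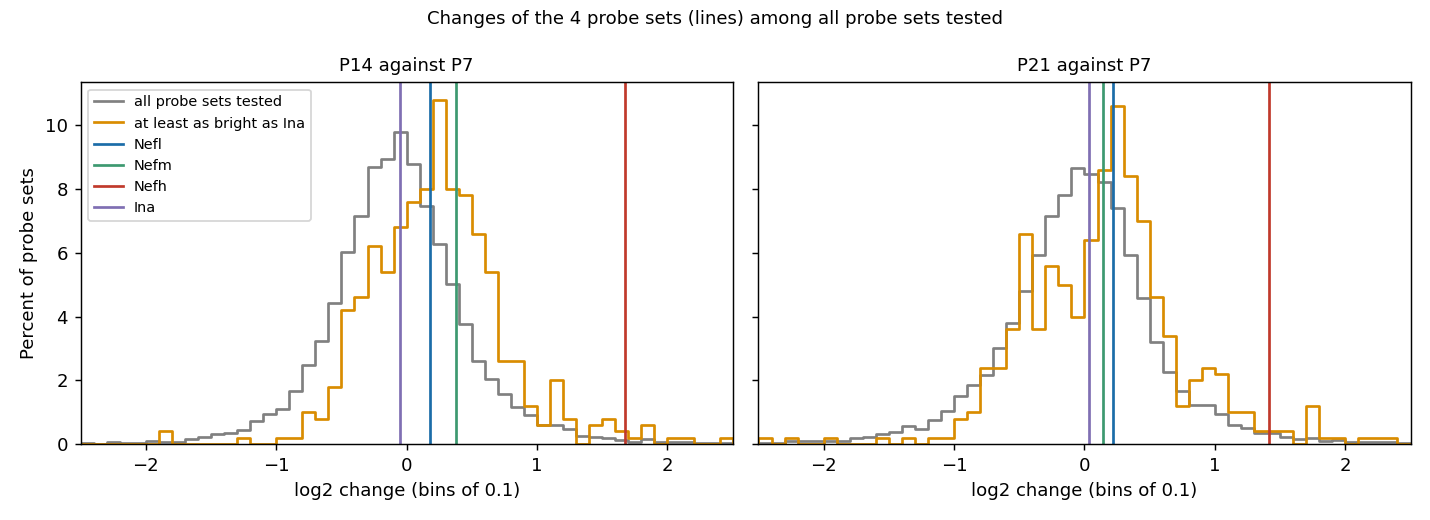
Share of probe sets (percent, vertical axis) by log2 change in bins of 0.1 (horizontal axis, shown from -2.5 to 2.5), for all 15296 probe sets tested and for the 500 at least as bright as Ina, with a vertical line for each member. The bright group is shifted to the right, with medians of 0.22 and 0.18, and the line of Nefh at 1.68 and 1.42 lies in the right tail of both panels.

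P21 replicate 1 stood below the other P21 arrays at the bright end. Its bright group lay at a median of -0.12 on the log2 scale from the mean of its age, against 0.036 and 0.089 for the other two. Nefl, Nefm and Nefh on this array deviated from their P21 means by -0.17, -0.21 and -0.094, and Ina by 0.013. The array's own control for the 3' end of beta-actin read 5113.2 there, against 7630.6 and 7942.8 on the other P21 arrays, and its ratio of 3' to 5' signal was 1.13, within the range of 1.01 to 1.17 over all arrays. Without this array, 3 of 4 members were called between P7 and P21, where 37.1% of all probe sets were called. Nefl then had a log2 change of 0.30 (limma adjusted p = 0.0173), Nefm 0.25 (limma adjusted p = 0.0373) and Nefh 1.47. P7 replicate 1 likewise stood below the other P7 arrays, with a bright-group median of -0.072 against 0.043 and 0.029. With P7 replicate 1 left out instead, 1 of 4 members was called between P7 and P21, where 35.6% of all probe sets were called. Nefl then had a log2 change of 0.17 (limma adjusted p = 0.245) and Nefm 0.16 (limma adjusted p = 0.319). The part of the brightness of either array in these differences was not tested.

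Whether the subunits changed unequally was asked within arrays, by the log2 difference of 2 probe sets on the same array. This difference removes any factor that scales all signals of an array alike. It does not remove a shift that depends on brightness, such as that of the bright group above. An exact permutation test compared the 3 ages over all 560 arrangements of the arrays, one-sided on the sum of squares between ages, with a smallest possible p of 0.00357. The 4 probe sets gave 6 pairs, and p-values were adjusted over these 6. Pairs that share a probe set share its readings, and all use the same arrays as the limma fit, so these are not separate results.

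Nefh and Nefl changed unequally. The log2 difference of Nefl minus Nefh was 2.24 ± 0.10 (SD, n = 3) at P7, 0.75 ± 0.02 (SD, n = 2) at P14 and 1.04 ± 0.11 (SD, n = 3) at P21 (exact permutation p = 0.00357, adjusted 0.0214). Nefh gained 1.49 on Nefl by P14 and 1.20 by P21, and the 3 ages did not overlap. In each of the 5 later pools the heavy chain's signal stood higher relative to that of the core subunit than in any P7 pool.

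Nefh also gained on Ina. Nefh minus Ina was -1.06 ± 0.25 (SD, n = 3) among P7 arrays, 0.66 ± 0.06 (SD, n = 2) at P14 and 0.32 ± 0.14 (SD, n = 3) at P21 (exact permutation p = 0.00714, adjusted 0.0214). The array with the lowest difference, -1.35, was P7 replicate 1, where Ina was highest and Nefh lowest of their P7 readings.

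Against Nefm, the other subunit with a long tail, the P7 arrays of Nefh again lay apart from all later ones. Nefm minus Nefh was 1.59 ± 0.19 (SD, n = 3) at P7 and 0.30 at both P14 arrays, and 0.31 ± 0.10 (SD, n = 3) at P21 (exact permutation p = 0.0357, adjusted 0.0714). After P14 the pair moved by 0.019, while the mean of each was lower at P21 than at P14. Of 11 alternatives this pair passed in 2, with an adjusted p of 0.0429 after quantile normalization and 0.019 without P21 replicate 1. Over all 11 the adjusted p reached 0.186, which was that without P7 replicate 1.

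The pairs without Nefh did not pass. The exact permutation p was 0.0929 for Nefl and Nefm (adjusted 0.116), 0.0964 for Nefm and Ina (adjusted 0.116) and 0.282 for Nefl and Ina (adjusted 0.282). From P7 to P21, Nefl minus Ina changed by 0.18, Nefm minus Ina by 0.11 and Nefl minus Nefm by 0.078. At P14 alone, both arrays showed Nefm higher relative to Nefl than any other array did. Without any 1 of the P7 arrays, 0 of 6 pairs passed after adjustment (2 at an unadjusted p under 0.05), and the adjusted p of both Nefl with Nefh and Nefh with Ina was then 0.0571. The smallest possible permutation p was then 0.00952, and 1 pair alone at that p could not pass after adjustment over 6. It was the same without a P21 array, where 2 to 3 pairs passed.

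**Figure D4:**
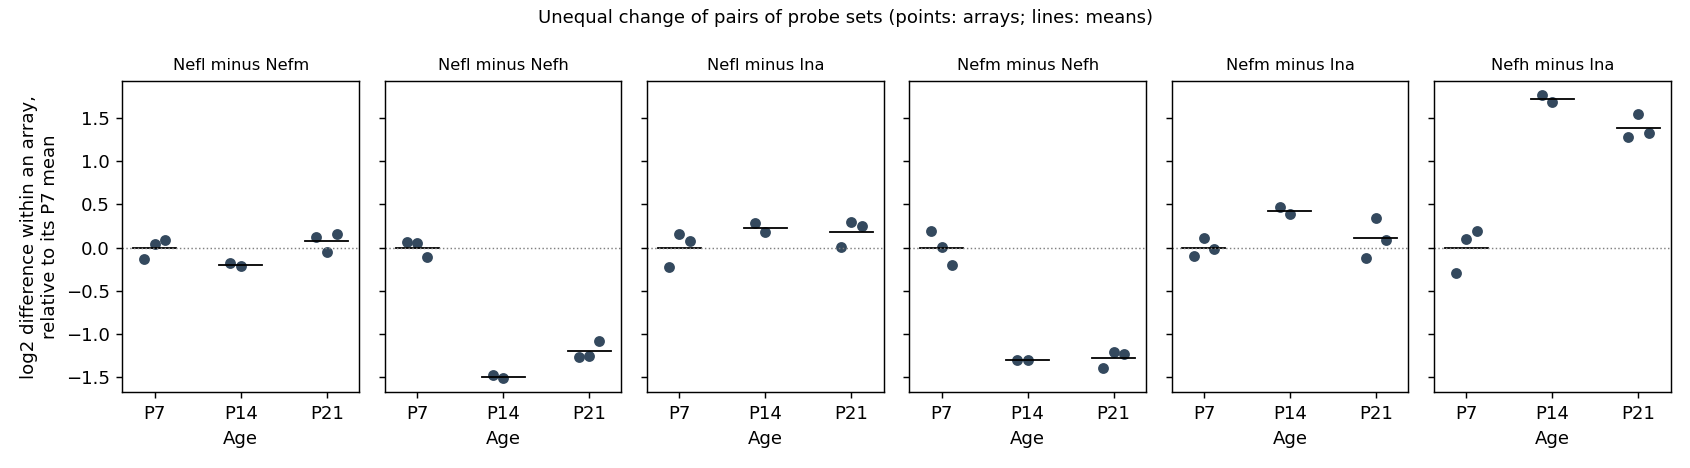
Log2 difference of 2 probe sets on the same array (vertical axis, relative to its mean at P7) by age for the 6 pairs, with a point for each array and a line for the mean of an age. The 3 pairs with Nefh move by 1.20 to 1.73 in size between P7 and the later means, and the 3 pairs without it by at most 0.43.

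The members were also set against each other and against all other probe sets by the Pearson correlation of log2 signals over the 8 arrays, as a description. These points share 3 ages, so a correlation holds the pattern over age together with the scatter within ages. Nefh correlated at 0.76 with Nefl, 0.72 with Nefm and -0.13 with Ina, and Nefl with Nefm at 0.67. Differences between ages made up 98.7% of the sum of squares of Nefh, 68.4% of that of Nefm, 55.3% of that of Nefl and 17.5% of that of Ina, where the median over probe sets tested was 62.8%.

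Of the 15292 other probe sets tested, 401 (2.62%) correlated with Nefh above 0.95, and 421 (2.75%) correlated below -0.95. The same counts were 40 and 17 for Nefl, 2 and 7 for Nefm, and 0 and 0 for Ina. Scatter within an age limits how high a correlation can come out, and it was wider beside the age differences for Nefm, Nefl and Ina than for Nefh, so these counts do not show how common each pattern over age was. The correlated probe sets are unnamed here.

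In the RefSeq annotation of GRCm38.p6, Nefl and Nefm lie on the same chromosome with 1 annotated gene wholly between them, and Nefh and Ina each lie on another. At P21, 2 of the 3 arrays of Nefl lay above both P14 arrays and all 3 of Nefm lay below both, but the test of unequal change for this pair gave the p of 0.0929 stated above.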

How the data were processed

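RNA of the cochlear nucleus was measured on 8 oligonucleotide arrays. The deposited table holds a scaled intensity for each probe set. GCOS, analysis software of the array's manufacturer, is named without a version in the submitters' processing notes. Background treatment: not given in the sources used here. The second table of the series, from spotted cDNA arrays, was not used, since no table at hand pairs its spots with the member genes.

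Arrays were rescaled to one 2%-trimmed mean of 250.1, a small step since the deposited means nearly agreed. The 64 control probe sets and those with a mean under 50.0 were left out of the tests. One model in limma 3.58.1 under R 4.3.3 (lmFit, then eBayes with a mean-variance trend) was fitted to log2(signal + 12.5) of all 8 arrays, and tests were two-sided with a Benjamini-Hochberg threshold of 0.05 over 15296 probe sets. The fit and the permutation test were tested on simulated data. Pairs of members were compared by an exact permutation test of the within-array difference (Python 3.11.15, NumPy 2.4.6).

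Alternatives were quantile normalization, the values as deposited, pseudocounts of 2.5 and 50.0, no filter and a filter at 100.0, no trend, the replicate number or the poly-A control as a block, and each array left out. All 4 members with a row are named, and no other probe set. Similar patterns were counted by a Pearson correlation above 0.95. The design expected 5 members and 10 pairs, and 4 members gave 6 pairs. The members, lists and tests were chosen with earlier results of these data known.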

Additional observations from a re-analysis of the deposited data

Results flagged for a closer look

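For Nefh the change before P14 and the change after P14 differed by the contrast of the 2 intervals. The difference was 1.94 on the log2 scale (SE 0.19, limma adjusted p = 0.00165), with a rise of 1.68 before P14. The change after P14 was -0.26 and was not called (limma adjusted p = 0.22). All 5 later arrays were above all P7 arrays, and all 3 P21 arrays were below both P14 arrays. The share of all probe sets that separate in these ways was not counted. No group had 4 or more arrays, so the test for a single array far from its group was not run.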

How the results depend on the processing

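The calls of Nefh (P14 and P21 against P7, and the difference between the intervals) held in all 17 alternatives. The number of members called between P7 and P14 was 2, where 29.6% of all probe sets were called. It was 1 with quantile normalization (26.9% of all probe sets called), with no filter (18.8%), with no trend (28.2%) and with the replicate number as a block (28.8%). With 1 P7 or P21 array left out it was 1 to 2 (22.9% to 31.2%). Between P7 and P21 the number was 1 with all arrays (38.6%), and 1 to 3 with 1 P7 or P21 array left out (31.3% to 37.1%). The number of pairs that changed unequally was 0 to 3 with 1 P7 or P21 array left out (2 with all arrays, and 3 of 6 with quantile normalization). The 0 came without a P7 array, where 2 of 6 pairs had an unadjusted permutation p under 0.05. The smallest possible p there, 0.00952, was the same without a P21 array, where 2 to 3 pairs passed.

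Directions turned only for values that had not passed. With quantile normalization these were Ina from P7 to P21 (-0.035), Nefl from P7 to P14 (-0.043), Nefl between intervals (-0.12) and Nefl minus Nefm from P7 to P21 (-0.021). With arrays blocked by their poly-A control, which leaves 1 array for P21, they were Nefm from P7 to P21 (-0.013) and Nefl from P14 to P21 (-0.12). With 1 array left out, Ina ran from -0.090 to 0.020 (P7 to P14) and -0.0048 to 0.11 (P7 to P21), Nefl from -0.031 to 0.12 (P14 to P21) and Nefm minus Ina from -0.012 to 0.22. The cause was not tested.

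Replicate numbers were shared between ages. Deviations of same-numbered arrays from the means of their ages correlated across probe sets at -0.0442 to 0.281. These means are of 2 or 3 arrays each, so the values do not settle whether the numbers pair the arrays. With the replicate block, Nefm from P7 to P14 had a log2 change of 0.38 (limma adjusted p = 0.0503), Nefl from P14 to P21 was -0.00088, and no other call of a member changed. Over all probe sets it gave 5966 calls for P21 against P7, 4406 between P7 and P14, 323 between P14 and P21 and 1177 for the difference of the intervals.

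Over all probe sets, 5907 were called for P21 against P7 (4777 to 5682 with 1 array left out), 4524 between P7 and P14 (2386 to 4781), 313 between P14 and P21 (0 to 465) and 1225 for the difference of the intervals (53 to 1181). The 0 was without P14 replicate 2, with 1764 at an unadjusted p under 0.05. With the poly-A block 1938 were called for P21 against P7, 0 for P21 against P14 (2070 unadjusted) and 68 for the difference. With no filter 109 and with no trend 121 were called for P21 against P14, and with no trend 793 for the difference. All 4 members are bright, so the filter and the pseudocount moved their values little, and 1 probe set per gene and 2 arrays at P14 limit the precision.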
